A study of Mus musculus with 12 samples.

Results

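The genes examined here drive cell division. They are 48 genes fixed by name, 25 that act in mitosis and 23 that act in DNA replication, and each was read from 1 probe set, the one annotated to that gene alone whose values averaged highest across the 12 arrays. In total 47 of the 48 were measured, out of 18193 genes on the array, namely 24 mitotic and 23 replication genes. The cyclin gene Ccnb1 was not analysed here. The members are listed by function, with no threshold on their values, but were chosen with earlier results of these data known. Their shares and medians beside those of all genes are therefore descriptions only.

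The cells were type II alveolar epithelial cells, the surfactant-making cells of the lung alveolus, taken from mouse lungs and cultured for 7 days before RNA was hybridised to Affymetrix Mouse 430 2.0 arrays. There were 4 groups of 3 arrays: a Gna11 knockout, a Gnaq/Gna11 double knockout, a Gna12 knockout and a Gna12/Gna13 double knockout. These genes encode alpha subunits of heterotrimeric G proteins, of the Gq/11 family (Gnaq, Gna11) and the G12/13 family (Gna12, Gna13). No group was wild type, so each double knockout is set against a single knockout that shares a deleted gene. All cells were untreated and grew on collagen in a medium with keratinocyte growth factor and without hydrocortisone. Mouse strain, age, the design of each deletion and the cells it reached are not stated in the labels. Neither is it said whether the 3 samples of a group were separate animals or cultures, so p-values measure only how far these samples spread, which may be technical.

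A dividing cell copies its DNA in S phase and parts the copies in mitosis. Replication origins are licensed when Cdc6 and Cdt1 load the Mcm2 to Mcm7 helicase, which Cdc45 and the GINS complex then activate for the polymerases. In mitosis cyclin-bound Cdk1 and the Aurora and Polo kinases build the spindle, the checkpoint kinases hold anaphase until every kinetochore is attached, and Cdc20 with the anaphase-promoting complex then releases the chromosomes. E2F factors drive many replication genes as S phase begins, and the DREAM and MuvB complexes act on many mitotic genes later, through a cell cycle homology region (CHR) often found with CCAAT boxes. In the adult alveolus type II cells divide seldom but act as progenitors after injury.

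The promoters are shown first because the mitotic and the replication genes differ in the letters near their start sites. Promoter windows of 300 bases (250 before the start site and 50 from it on) were taken from RefSeq on GRCm38.p6. The table gave 21 windows for 20 mitotic genes and 21 for 19 replication genes. The genes without one were Ccna2, Aurkb, Kif20a, Tpx2, Mcm4, Gins1, Gins2 and Ccne2. The letters searched on both strands were CCAAT for the CCAAT box, TTTGAA and TTCGAA for the CHR, and TTTCCCGC, TTTCGCGC, TTTGCCGC and TTTGGCGC for E2F. A CHR match stood in 18 of 21 mitotic windows (85.7%) and 5 of 21 replication windows (23.8%), against 19.2% of all 32851 windows. An E2F match stood in 1 of 21 mitotic windows (4.76%), that of Cdk1, and in 8 of 21 replication windows (38.1%), against 2.26% of all windows. A CCAAT match stood in 18 of 21 mitotic windows (85.7%) and 13 of 21 replication windows (61.9%), against 37.4% of all windows. The mitotic windows were thus rich in CHR and CCAAT letters and the replication windows in E2F letters. A match is a string of letters, not a measured binding site, and a gene with several starts adds several windows.

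**Figure D1:**
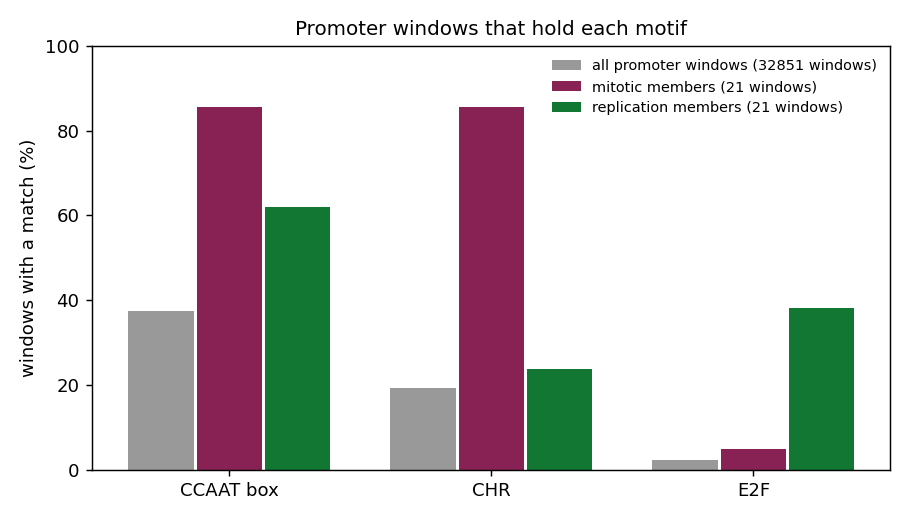
Share of promoter windows (%) that hold at least 1 match to the CCAAT box, the CHR or the E2F letters, for all 32851 windows (grey), the 21 windows of mitotic genes (purple) and the 21 of replication genes (green). The CHR bar is tallest for mitotic genes (85.7%) and the E2F bar for replication genes (38.1%).

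Below are 5 of these promoters, from 200 bases before to 30 bases from the start site on, with the searched letters in capitals on either strand. Kif23 and Mki67 stand for the mitotic pattern, Mcm6 and Mcm5 for the replication pattern, and Birc5 is the only mitotic gene that passed the test between the Gnaq/Gna11 and Gna11 arrays. Kif23, a kinesin of the midbody that acts in cytokinesis, lies at chr9:61946770-61946999 on the minus strand. Mki67, which coats mitotic chromosomes and encodes the proliferation antigen Ki-67, lies at chr7:135716350-135716579 on the minus strand. Birc5 (survivin, of the chromosomal passenger complex) lies at chr11:117849037-117849266 on the plus strand. The helicase subunits Mcm6 and Mcm5 lie at chr1:128359676-128359905 on the minus strand and at chr8:75109309-75109538 on the plus strand.
Kif23: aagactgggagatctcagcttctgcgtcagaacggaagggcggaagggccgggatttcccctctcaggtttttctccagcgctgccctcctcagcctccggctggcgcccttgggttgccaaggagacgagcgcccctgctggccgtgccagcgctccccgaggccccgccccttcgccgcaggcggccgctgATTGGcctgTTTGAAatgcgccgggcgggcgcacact
Mki67: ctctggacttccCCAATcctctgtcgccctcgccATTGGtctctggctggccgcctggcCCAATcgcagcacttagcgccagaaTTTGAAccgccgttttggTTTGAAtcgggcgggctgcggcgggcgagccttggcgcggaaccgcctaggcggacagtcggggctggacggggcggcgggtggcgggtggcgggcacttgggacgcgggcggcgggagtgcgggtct
Birc5: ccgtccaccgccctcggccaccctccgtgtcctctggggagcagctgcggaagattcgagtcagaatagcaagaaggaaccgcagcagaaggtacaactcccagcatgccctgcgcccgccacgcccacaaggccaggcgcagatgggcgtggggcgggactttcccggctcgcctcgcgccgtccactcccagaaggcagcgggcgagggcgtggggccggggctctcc
Mcm6: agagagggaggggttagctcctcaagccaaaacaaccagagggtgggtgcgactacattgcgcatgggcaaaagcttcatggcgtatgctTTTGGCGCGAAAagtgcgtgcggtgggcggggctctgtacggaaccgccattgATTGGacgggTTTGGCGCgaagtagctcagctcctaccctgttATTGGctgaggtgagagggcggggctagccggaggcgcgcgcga
Mcm5: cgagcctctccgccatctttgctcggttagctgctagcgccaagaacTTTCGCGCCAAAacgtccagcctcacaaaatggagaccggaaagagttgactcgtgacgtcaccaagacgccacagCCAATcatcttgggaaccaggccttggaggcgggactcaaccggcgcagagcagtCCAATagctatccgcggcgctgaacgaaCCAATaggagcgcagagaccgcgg
In Kif23 a CCAAT box on the opposite strand begins 7 bases before the start, with a CHR just after it. Mki67 holds CCAAT boxes 188, 166 and 141 bases before its start, followed by CHR matches at 116 and 98 bases. In Mcm6 a pair of overlapping E2F matches begins 110 and 106 bases before the start and a further one at 47 bases. In Mcm5 the overlapping E2F pair begins 153 and 149 bases before the start. The Birc5 window holds none of these letters, and neither do those of Nusap1, Rfc4, Tyms, Ccne1 and Tk1, which says only that these letters are not in these windows.

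The arrays are summarised by RMA values, read as log2, for which a step of 1 is a doubling if that reading holds. Array medians ran from 5.03 to 5.11, and arrays of 1 group correlated at 0.963 or more. Of 21 probe sets for the deleted genes, 4 were lower in every array said to lack that gene than in every other array, 1 for each gene. For Gna11 that probe set read 6.86 to 7.83 in the 6 arrays lacking it and 7.98 to 8.57 in the other 6, while the other probe sets of these genes overlapped. These 4 were picked after their values were seen. The type II markers Sftpc (12.78 to 13.38) and Sftpd (13.28 to 13.46) were high in every array. So were the type I marker Ager (13.18 to 13.51) and the macrophage marker Csf1r (12.01 to 13.15), so markers listed for other cell types were present too. Not every marker of these lists was high, as Akap5 (type I, 4.09 to 6.17) and Siglec1 (macrophage, 4.73 to 5.26) show. Which cells these transcripts came from was not tested. The mean of 20 pan-leukocyte markers was 8.45 ± 0.315 in Gna11, 9.17 ± 0.015 in Gnaq/Gna11, 9.64 ± 0.28 in Gna12 and 9.35 ± 0.421 in Gna12/Gna13 arrays (SD, n = 3). The Y-linked Eif2s3y was low in all 3 Gnaq/Gna11 arrays (3.33 to 3.54) and in replicate 2 of each other group, and high in replicates 1 and 3 of those groups. In bulk RNA fewer cells of a type and less RNA per cell cannot be told apart.

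Many mitotic genes were dim. In 10 of 24 the mean of every group lay below 5.1008, the median of all probe sets other than controls, and in 14 at least 1 group mean reached it. Of the replication genes 17 of 23 reached it and 6 did not, against 69.7% of all genes. The dim mitotic genes were Aurkb, Bub1, Bub1b, Plk1, Cenpf, Kif11, Kif20a, Ttk, Prc1 and Ndc80, and the dim replication genes Mcm4, Rrm2, Tyms, Cdc6, Pola1 and Ccne2. At such signals a change in RNA moves the value little, so a flat value there is not a measured lack of change. Over the 12 arrays the SD of a gene had a median of 0.256 for the mitotic and 0.349 for the replication genes. Mki67 varied most (SD 0.853), then Birc5 (0.841) and Mcm6 (0.717), and Ccne2 least (0.0757).

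The mean of the 24 mitotic genes was 5.04 ± 0.0784 in the Gna11 arrays and 5.50 ± 0.109 in the Gnaq/Gna11 arrays (SD, n = 3). It was 5.24 ± 0.038 in Gna12 and 5.28 ± 0.22 in Gna12/Gna13 arrays. The mean of the 23 replication genes was 6.74 ± 0.059, 6.80 ± 0.0533 and 6.83 ± 0.228 in Gna11, Gna12 and Gna12/Gna13 arrays, and 7.09 ± 0.0255 in Gnaq/Gna11 arrays. On both scores the Gnaq/Gna11 arrays lay above the Gna11 arrays with no overlap. On the mitotic score Gnaq/Gna11 replicate 2 (5.377) lay below Gna12/Gna13 replicates 2 (5.425) and 3 (5.38). Replicate 1 of Gna12/Gna13 was the lowest array of its group on both, at 5.02 and 6.57, and it also had that group's lowest leukocyte mean, 8.87. The mitotic mean minus the replication mean was -1.70 ± 0.0201 in Gna11, -1.60 ± 0.103 in Gnaq/Gna11, -1.56 ± 0.0668 in Gna12 and -1.55 ± 0.0761 in Gna12/Gna13 arrays. Signals of different probe sets cannot be set against each other, so only the change of this gap between groups can be read. The Gna11 arrays (-1.719 to -1.679) lay below every Gna12 (-1.632 to -1.5) and Gna12/Gna13 array (-1.627 to -1.475). They overlapped with the Gnaq/Gna11 arrays (-1.714 to -1.525). This change was not tested, and the order of the groups was another with the mean of all probe sets, as given below. The highest group mean was that of Gnaq/Gna11 for 14 of 24 mitotic and 14 of 23 replication genes, and for 26.9% of all genes. The lowest was that of Gna11 for 11 of 24 and 8 of 23, and for 22.9% of all genes.

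**Figure D2:**
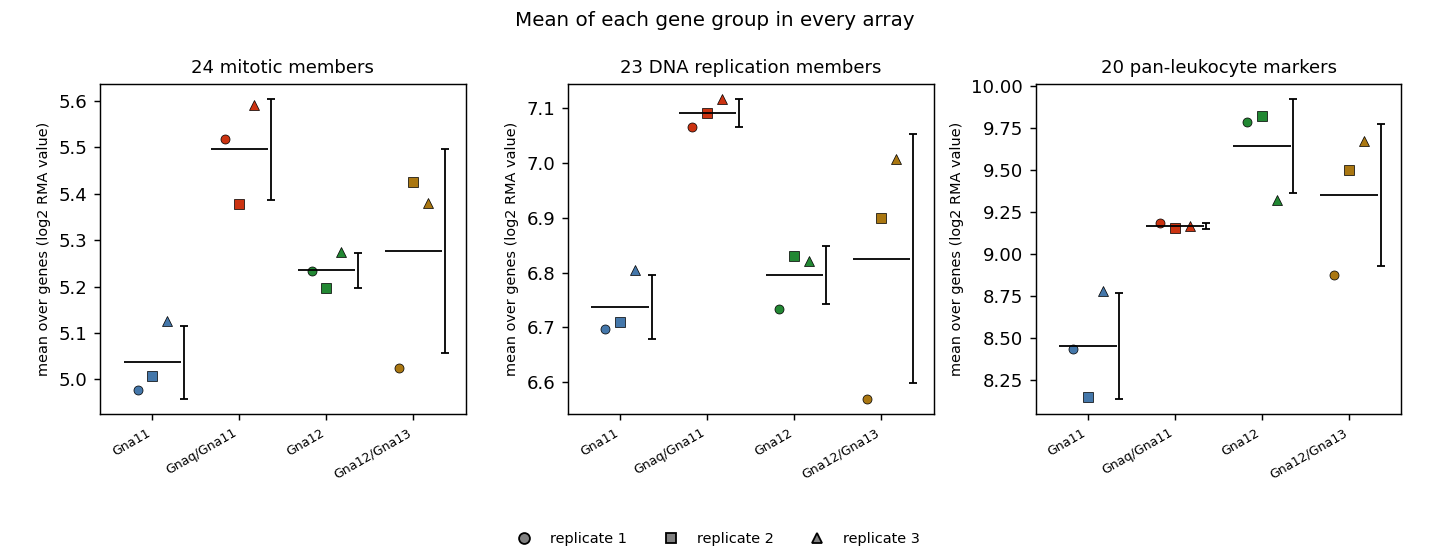
Mean RMA value (log2) over the 24 mitotic genes, the 23 replication genes and 20 pan-leukocyte markers in each of the 12 arrays, with symbols for the replicate number, a line at the group mean and a bar of ±1 SD (n = 3). The Gnaq/Gna11 group has the highest group mean on both gene sets (5.50 and 7.09), with overlap with Gna12/Gna13 arrays on the mitotic set. The Gna11 group has the lowest leukocyte mean (8.45).

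The first comparison asked what the loss of Gnaq adds to that of Gna11. Most of these genes read higher in the Gnaq/Gna11 than in the Gna11 arrays, 17 of 24 mitotic and 18 of 23 replication genes, where 45.4% of all genes did. Birc5 alone passed the test (limma, adjusted p under 0.05 over 18193 genes), a call made for 1.84% of all genes. The median difference was 0.26 for the mitotic and 0.31 for the replication genes, beside -0.03 over all genes. At an unadjusted p under 0.05, 9 mitotic and 7 replication genes were higher and none lower, and 16.2% of all genes passed that mark in either direction. The groups did not overlap, with Gnaq/Gna11 higher, for 9 mitotic and 6 replication genes (9.87% of all genes), and with it lower for the mitotic genes Kif20a and Prc1 (9.83% of all genes), both dim.

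Birc5 carried the call. Its Gna11 arrays read 4.86, 5.14 and 5.18 and its Gnaq/Gna11 arrays 6.72, 6.78 and 7.37. The Gna12 arrays read 6.03, 5.31 and 6.22 and the Gna12/Gna13 arrays 5.01, 6.52 and 6.56. All 3 Gnaq/Gna11 arrays lay above all 9 others, while Gna12/Gna13 replicate 1 stood with the Gna11 arrays. Birc5 rose by 1.90 ± 0.391 (SE), 3.72-fold, with an adjusted p of 0.0378. This call passed in 6 of 16 alternative fits, with differences from 1.34 to 2.01 and adjusted p from 0.0246 to 0.614, and it was lost without any 1 of the 6 arrays compared. It was also lost with array weights (174 genes called in all) and with the mean of 20 pan-leukocyte markers as a covariate, which left 1.34 ± 0.537. The fit without genes dim in every group is among those passed. It is no support, as Birc5 met that filter only through groups other than Gna11.

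Of the other mitotic genes that did not overlap, Tpx2 and Kif23 had the smallest p. Tpx2, which activates Aurora A on spindle microtubules, read 4.99, 4.51 and 5.36 in Gna11 and 5.84, 6.18 and 6.64 in Gnaq/Gna11 arrays, a difference of 1.26 ± 0.293 (adjusted p 0.0582). For Kif23 the Gna11 arrays read 5.90, 6.16 and 6.16 and the Gnaq/Gna11 arrays 6.91, 6.76 and 7.18, a difference of 0.88 ± 0.203 (adjusted p 0.0573). Neither pair of groups overlapped, and both genes missed the threshold narrowly. Mki67 read 6.14, 6.78 and 8.19 in Gna11 and 8.88, 8.20 and 8.61 in Gnaq/Gna11 arrays. The Gna11 arrays were widely spread and replicate 3 nearly reached the lowest Gnaq/Gna11 array. The difference was 1.53 ± 0.467 (adjusted p 0.136). Without Gna11 replicate 3 Mki67 passed, at 2.1 ± 0.366 and adjusted p 0.0245, and Tpx2 too, at 1.47 ± 0.312 and adjusted p 0.0447, while Birc5 did not.

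Top2a encodes the topoisomerase that untangles replicated DNA. It read 5.20, 4.87 and 5.44 in Gna11 and 6.68, 5.75 and 6.46 in Gnaq/Gna11 arrays, with no overlap and a difference of 1.13 ± 0.308 (adjusted p 0.0984). Cenpa, the histone variant that marks the centromere, read 5.12, 4.83 and 5.51 against 6.62, 6.12 and 6.43, a difference of 1.23 ± 0.332 (adjusted p 0.0936). The groups of Cenpa did not overlap either. Aurka, the Aurora kinase at the spindle poles, overlapped between the groups, with 4.99, 4.95 and 5.82 in Gna11 and 6.60, 5.40 and 6.70 in Gnaq/Gna11 arrays. For Ccnb2, a B-type cyclin, the difference was 0.51 ± 0.189, and for Ube2c, the ubiquitin-conjugating enzyme of the anaphase-promoting complex, 0.42 ± 0.16. Neither passed, though neither overlapped.

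Cdk1, the cyclin-dependent kinase of mitosis, read 5.73, 5.70 and 5.82 in Gna11 and 5.92, 5.83 and 6.0 in Gnaq/Gna11 arrays. These groups lay side by side without overlap, 0.17 apart. Ccna2, the cyclin A that Cdk1 and Cdk2 bind, read 5.86, 6.34 and 5.79 against 5.98, 6.50 and 6.02. Plk1, the Polo kinase of spindle assembly, read 5.01, 5.03 and 4.92 against 5.02, 4.98 and 4.79. Cdc20, the activator of the anaphase-promoting complex, read 6.17, 6.30 and 6.03 against 6.15, 6.05 and 6.02. Ccna2, Plk1 and Cdc20 overlapped between the groups. The checkpoint and kinetochore genes Bub1, Bub1b, Ttk, Ndc80, Cenpe and Cenpf differed by -0.06 to 0.38, and all 6 overlapped.

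Replication genes differed most among the helicase subunits. Mcm6 read 8.21, 9.54 and 9.58 in Gna11 and 10.02, 10.61 and 10.76 in Gnaq/Gna11 arrays. Mcm5 read 6.93, 7.78 and 7.74 against 8.95, 8.56 and 8.92. Both sets of arrays were apart, and in both genes Gna11 replicate 1 was the lowest of all 12 arrays. The difference was 1.35 ± 0.381 for Mcm6 (adjusted p 0.109) and 1.33 ± 0.326 for Mcm5 (adjusted p 0.0687). Mcm3 read 6.99, 6.76 and 7.77 against 8.18, 7.68 and 8.20, and Mcm2 8.18, 7.51 and 7.32 against 8.33, 8.03 and 8.35. Each overlapped in the probe set used. Mcm7 overlapped as well, from 10.22 to 11.16 in Gna11 and from 10.69 to 11.51 in Gnaq/Gna11 arrays. Mcm4 was dim.

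Of the loading factors, Cdt1 read 9.36, 9.61 and 9.87 in Gna11 and 9.98, 9.92 and 10.09 in Gnaq/Gna11 arrays, just without overlap. Cdc6 was dim and overlapped. Cdc45, which joins the helicase when it is activated, read 6.80, 6.69 and 6.45 against 6.46, 6.55 and 6.34, a difference of -0.20. The GINS subunits gave 4.80, 4.91 and 5.29 against 5.62, 5.73 and 5.29 for Gins1, and 5.93, 6.37 and 6.81 against 6.43, 6.03 and 6.26 for Gins2. Neither GINS gene separated the groups. So of the Mcm, Cdc45 and GINS genes only Mcm5 and Mcm6 stood apart between the groups in the probe sets used. Mcm2, Mcm3, Mcm4 and Mcm7 overlapped, as did Cdc45 and the GINS genes. The further probe sets of Mcm5 overlapped too. Differences between members were not tested.

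At the fork, Prim1 makes the RNA primer, the Rfc proteins load the clamp Pcna, and Fen1 trims Okazaki fragments. Prim1 read 9.64, 8.89 and 8.37 in Gna11 and 10.01, 9.72 and 10.09 in Gnaq/Gna11 arrays. Fen1 read 8.82, 8.92 and 8.91 against 9.13, 9.42 and 9.32. Rfc4 read 8.15, 7.83 and 8.04 against 8.54, 8.42 and 8.50. In the probe sets used, every Gnaq/Gna11 array lay above all 9 other arrays for all 3 genes. This held for 3.17% of all genes, and among the mitotic genes for Birc5 alone. It did not hold in the second probe sets of Prim1 and Fen1, where the Gnaq/Gna11 arrays overlapped with others. Differences were 0.97 ± 0.348 for Prim1, 0.41 ± 0.146 for Fen1 and 0.48 ± 0.224 for Rfc4, with adjusted p of 0.195, 0.195 and 0.325. Pcna itself read 7.18, 5.92 and 6.26 against 6.54, 6.17 and 7.23, with full overlap.

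Of the genes of nucleotide supply, Rrm1, the large subunit of ribonucleotide reductase, differed by 0.60 ± 0.259 with overlap (unadjusted p 0.0394, adjusted p 0.278). Its partner Rrm2 read 4.77, 4.93 and 4.79 in Gna11 and 4.69, 5.08 and 4.70 in Gnaq/Gna11 arrays, and thymidylate synthase (Tyms) 4.47, 5.04 and 4.55 against 4.50, 4.43 and 4.59. Thymidine kinase 1 (Tk1) read 5.18, 5.60 and 6.29 against 5.35, 5.85 and 6.05. The cyclin E gene Ccne1, which opens S phase, read 6.54, 6.45 and 6.70 against 6.46, 6.48 and 6.86. Rrm2, Tyms, Tk1 and Ccne1 overlapped between the groups, and the probe sets of Rrm2 and Tyms were dim.

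**Figure D3:**
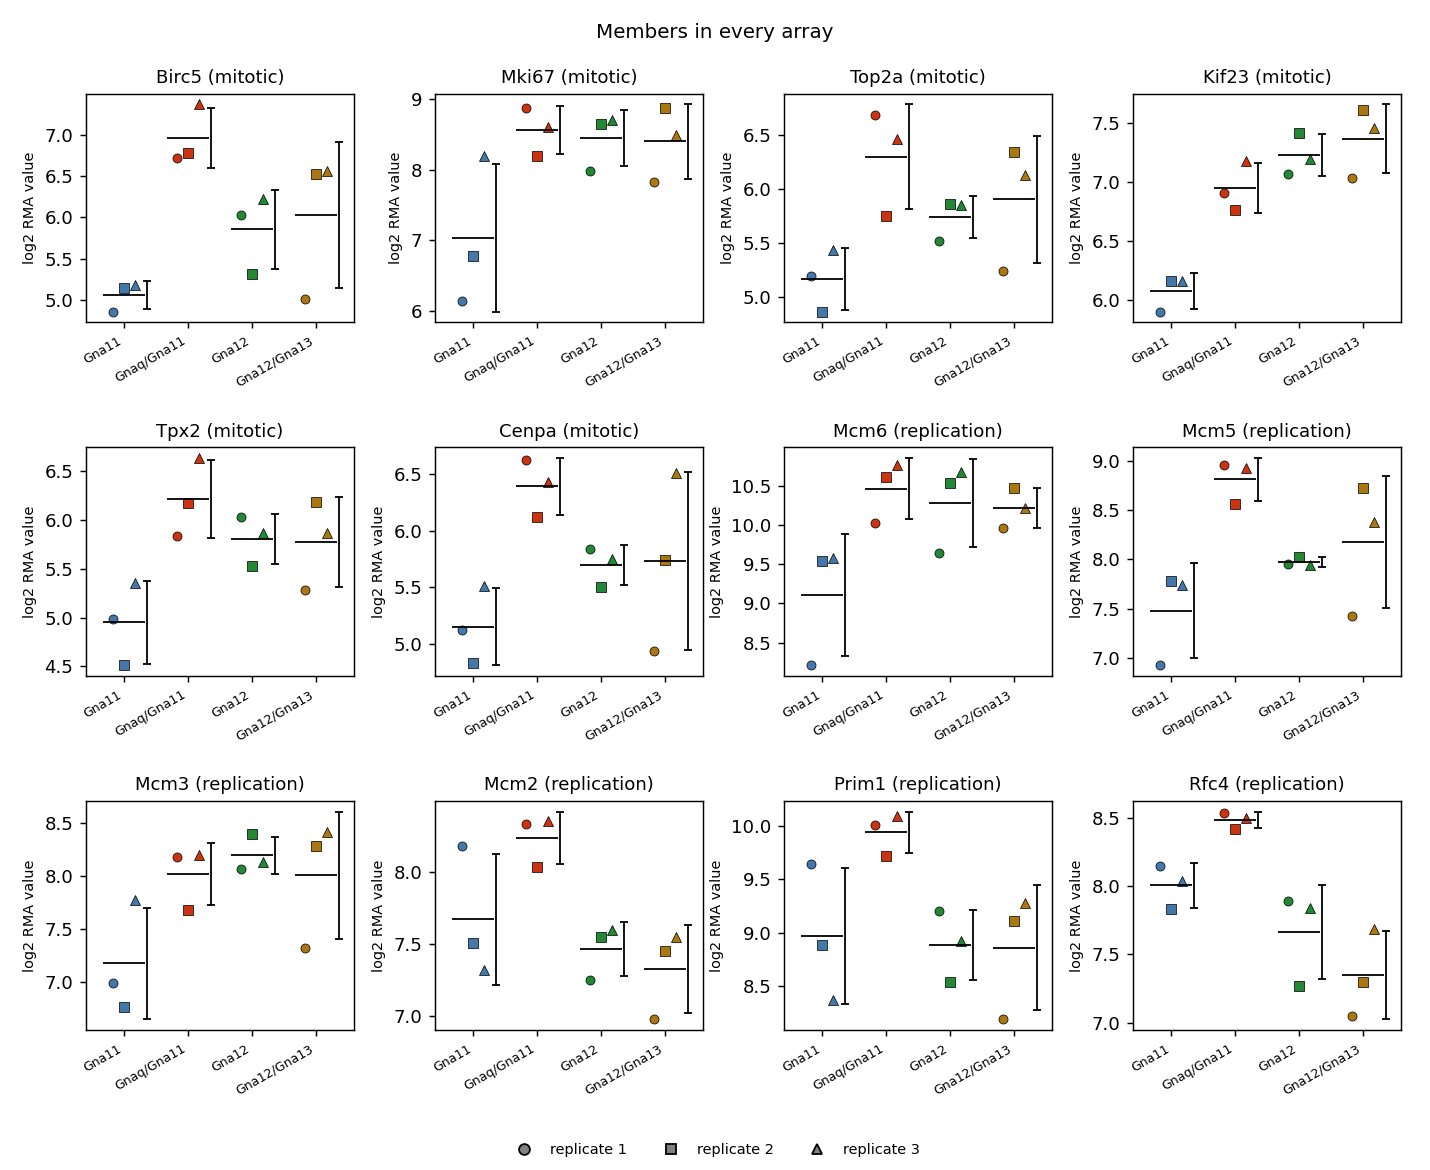
RMA value (log2) of 6 mitotic and 6 replication genes in each array, by genotype group, with symbols for the replicate number, a line at the group mean and a bar of ±1 SD (n = 3). Birc5, Prim1 and Rfc4 are highest in the 3 Gnaq/Gna11 arrays, and Kif23 is lowest in the 3 Gna11 arrays (5.90 to 6.16).

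Other probe sets of the same genes did not always follow. In total 103 probe sets map to the 47 genes. Of the 25 further mitotic probe sets 9 had the sign of the probe set used, and of the 31 further replication probe sets 20 did. Mcm6 differed by 1.35, 2.81 and -0.10 in its 3 probe sets, from the brightest to the dimmest. Top2a gave 1.13, -0.05 and 0.20, and Cenpa 1.23, 0.37 and -0.29. Mcm3 differed by 0.65 to 1.54 in all 5 of its probe sets. The second Mcm2 probe set read 6.35, 5.56 and 6.75 in Gna11 and 8.29, 7.16 and 8.22 in Gnaq/Gna11 arrays, without overlap. The second of Ccna2 differed by 0.74, with overlap, against 0.17 in the probe set used. For Cdc45 the second gave 0.08 where the probe set used gave -0.20. Mcm5 overlapped in its second probe set, with 5.53, 5.82 and 5.59 in Gna11 and 6.09, 5.53 and 6.24 in Gnaq/Gna11 arrays. Rrm2 gave 0.00 in the probe set used but 0.59 and 0.80 in the other two. Birc5 and Mki67 had 1 probe set each.

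Several other measures moved with this comparison. The 15 macrophage markers averaged 8.32 ± 0.389 in Gna11 and 9.66 ± 0.051 in Gnaq/Gna11 arrays, ran from 7.89 to 10.02 over the 12 arrays, and all 15 reached the median level in at least 1 group. Of them 14 were higher in Gnaq/Gna11 arrays and 5 passed, where 45.4% of all genes were higher and 1.84% passed in either direction. The 9 fibroblast markers averaged 6.28 ± 0.183 against 6.83 ± 0.269, with a median difference of 0.10. Of them 5 were higher and 4 lower in Gnaq/Gna11 arrays, and Col1a1 and Col3a1 passed as higher. Of 10 type I markers 9 were lower in Gnaq/Gna11 arrays, as were 9 of 10 endothelial markers, and none of these passed. The Gapdh 3' probe set exceeded the 5' one by 3.46 to 4.03 in Gna11 and by 3.01 to 3.26 in Gnaq/Gna11 arrays, a measure of RNA integrity and labelling. With the leukocyte marker mean as a covariate no gene of the 47 passed and 8 genes were called in all. The mitotic median was then 0.25 and the replication median 0.0074. With the Gapdh measure as a covariate no gene of the 47 passed and 3 genes were called in all. Birc5 was then at 1.78 ± 0.586, with a mitotic median of 0.23 and a replication median of 0.17. With Eif2s3y as a covariate Birc5 was at 1.87 ± 0.464, with an adjusted p of 0.0789, and the medians were 0.21 and 0.20. Each of these measures goes along with genotype, and the position letter in the labels, whose meaning is not stated there, is B to D in single and E to G in double knockouts, so letter and genotype cannot be told apart.

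The second comparison asked the same of Gna13 on top of Gna12. No gene passed in it, 0% of 18193 by limma, and none of the 47 had an unadjusted p under 0.05, where 4.5% of all genes did. The medians were 0.03 for the mitotic and 0.04 for the replication genes, beside -3e-04 over all genes. Arrays did not overlap for Cenpe and Cdc6, higher in Gna12/Gna13 (6.4% of all genes), and for Cdc45, lower (4.89%). Cdc45 read 6.56, 6.57 and 6.55 in Gna12 and 6.44, 6.32 and 6.12 in Gna12/Gna13 arrays, a difference of -0.27 ± 0.158. Cenpe, the kinetochore motor, read 4.54, 4.79 and 4.72 against 4.81, 4.85 and 5.02. These are small steps between groups that nearly touch.

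The genes that were high in Gnaq/Gna11 arrays gave wide intervals here. For Birc5 the difference was 0.18, with a 95% interval from -0.68 to 1.03. For Mki67, with 7.99, 8.65 and 8.71 in Gna12 and 7.83, 8.88 and 8.50 in Gna12/Gna13 arrays, it was -0.04, from -1.07 to 0.98. For Mcm6, with 9.64, 10.54 and 10.67 against 9.96, 10.47 and 10.21, it was -0.07, from -0.91 to 0.77. For Mcm5, with 7.95, 8.03 and 7.94 against 7.43, 8.72 and 8.38, it was 0.20, from -0.51 to 0.92. Changes within these intervals were therefore not excluded in these genes with 3 arrays a group. Larger ones could also miss the adjusted threshold, as Mki67 did at 1.53 in the first comparison.

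The difference of the differences was tested directly. None of the 47 genes passed (limma), where 0.0715% of all genes did, and 6 mitotic and 4 replication genes had an unadjusted p under 0.05 (10.8% of all genes). The median was 0.15 for the mitotic and 0.15 for the replication genes, beside -0.02 over all genes. Birc5 had 1.72 ± 0.552 (adjusted p 0.263), Tpx2 1.30 ± 0.414 (adjusted p 0.261) and Mcm6 1.42 ± 0.538 (adjusted p 0.349). The response of these genes to the added deletion was thus not shown to differ between the Gq/11 and the G12/13 pair.

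**Figure D4:**
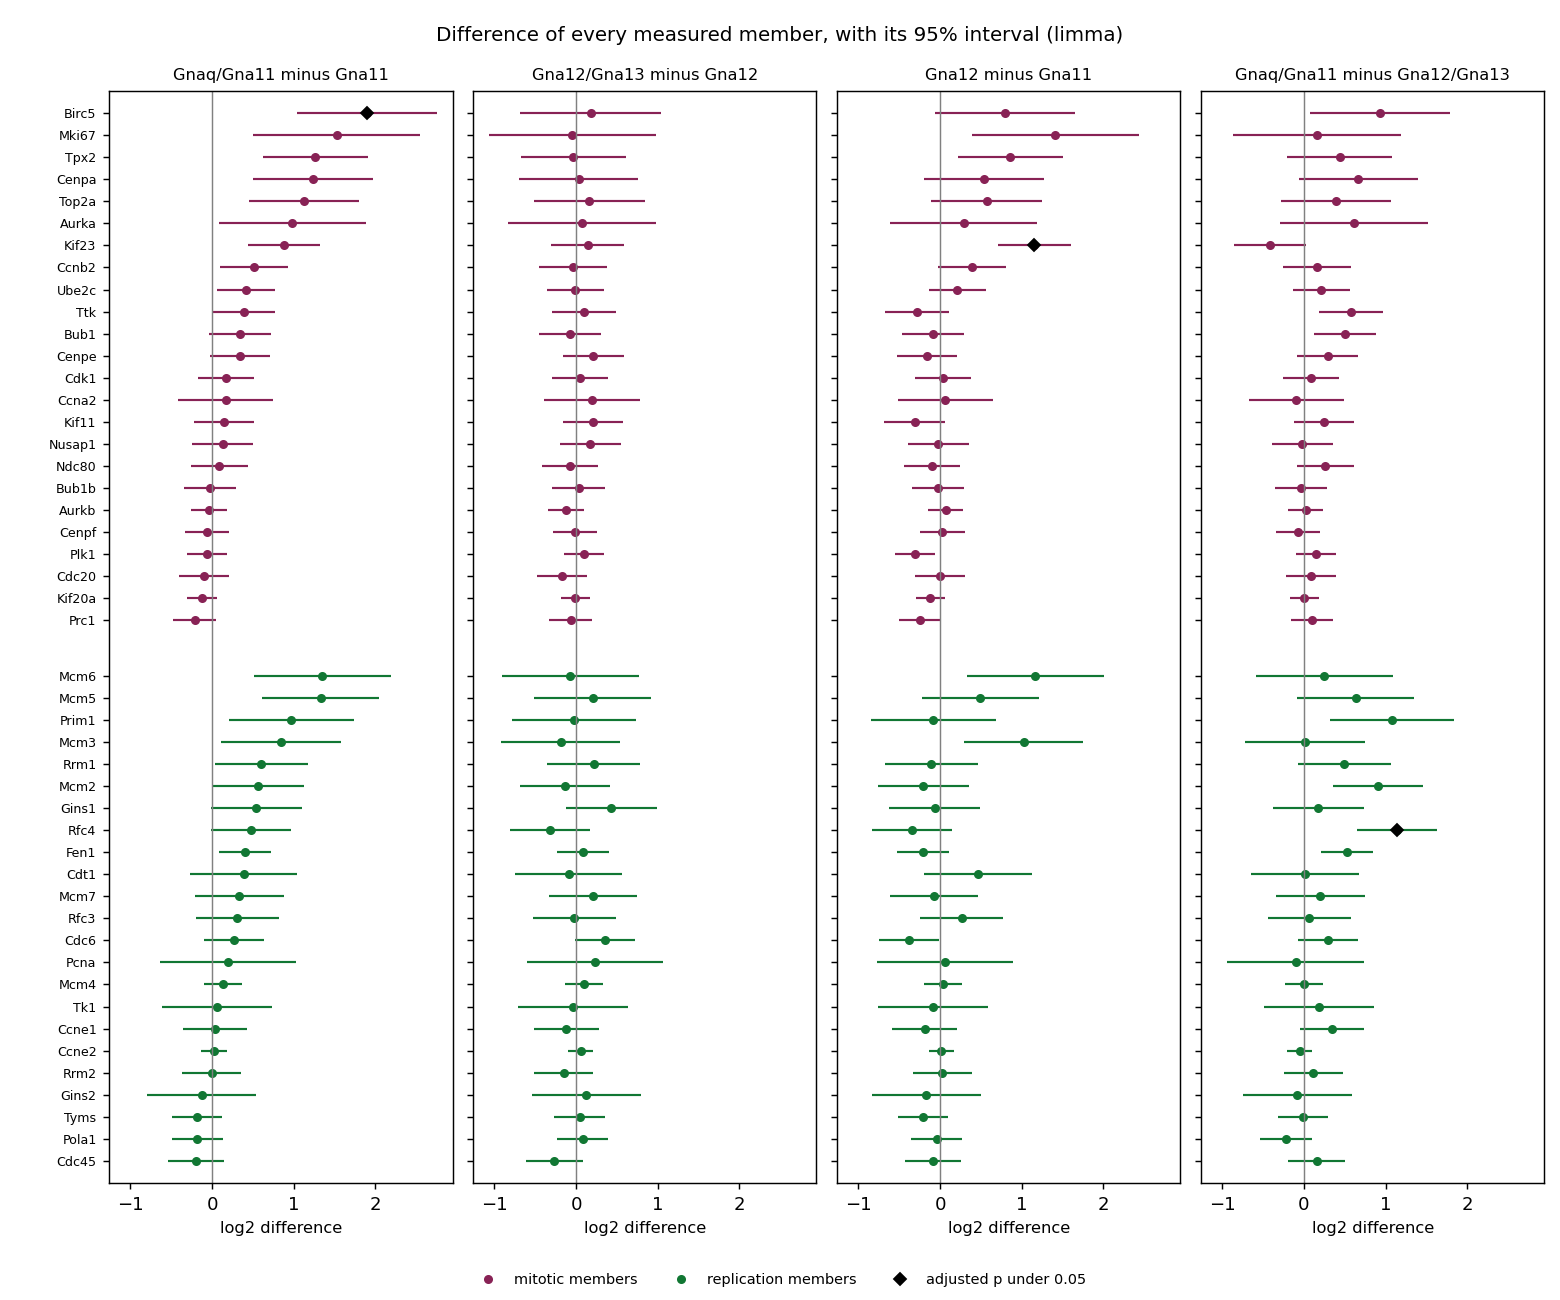
Log2 difference of each of the 47 genes with its 95% interval (limma) in 4 comparisons, mitotic genes in purple above and replication genes in green below, ordered by the difference of Gnaq/Gna11 minus Gna11. Black diamonds mark the genes past an adjusted p of 0.05, namely Birc5 (1.90), Kif23 (1.15) and Rfc4 (1.14), each in 1 panel, and none is marked in the Gna12/Gna13 minus Gna12 panel.

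The single knockouts were also set against each other. They share no deleted gene, and the Gna11 arrays enter this comparison as well as the first, so the 2 sets of differences are not independent. Kif23 rose in Gna12 arrays, and it alone of the 47 passed the test, where 2.82% of all genes did. It read 7.07, 7.42 and 7.20 in Gna12 against 5.90, 6.16 and 6.16 in Gna11 arrays, and 7.04, 7.61 and 7.46 in Gna12/Gna13 arrays. The 3 Gna11 arrays were below all 9 others. The difference was 1.15 ± 0.203, 2.22-fold, with an adjusted p of 0.0187. It passed in 10 of 16 alternative fits (0.35 to 1.23, adjusted p 0.0126 to 0.892) and not with the mean of all its probe sets, of which the other two were dim, nor without Gna11 replicate 1 or Gna12 replicate 2. The leukocyte mean was 8.45 in Gna11 and 9.64 in Gna12 arrays, and with it as a covariate Kif23 was at 0.73 ± 0.393 (adjusted p 0.892). The Gapdh 3' minus 5' difference was 3.46 to 4.03 in Gna11 and 2.67 to 3.25 in Gna12 arrays, and with it as a covariate Kif23 was at 0.70 ± 0.298 (adjusted p 0.64). Fitted on these 2 groups alone, Kif23 kept its difference but had an adjusted p of 0.0758.

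Other genes were spread both ways. The groups did not overlap, with Gna12 higher, for 4 mitotic and 3 replication genes (10.3% of all genes) and, with it lower, for 3 and 2 (15.9% of all genes). Those higher in Gna12 were Birc5, Top2a, Kif23, Tpx2, Mcm3, Mcm5 and Mcm6. All of these but Mcm3 also did not overlap in the first comparison, with the same Gna11 arrays lower. The medians were 0.03 and -0.07, beside -0.06 over all genes. Mcm6 differed by 1.17 ± 0.381 and Mcm3, with 8.07, 8.40 and 8.13 in Gna12 arrays, by 1.02 ± 0.333, both with an adjusted p of 0.116. Mki67 differed by 1.41 ± 0.467 (adjusted p 0.12). Plk1 read 4.77, 4.71 and 4.57 in Gna12 arrays, below all Gna11 arrays, a difference of -0.31 ± 0.111 (adjusted p 0.149). The 3 genes Plk1, Kif20a and Ttk and the pair Cdc6 and Fen1 were the ones that stood lower in Gna12 arrays.

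The double knockouts were compared last. Rfc4, the clamp loader subunit, rose in Gnaq/Gna11 against Gna12/Gna13 arrays and was the only one of the 47 to pass, where 6.1% of all genes did. It read 8.54, 8.42 and 8.50 in Gnaq/Gna11 and 7.05, 7.30 and 7.69 in Gna12/Gna13 arrays. The Gna12 arrays were at 7.89, 7.27 and 7.84, so both groups lacking Gna12 lay below the Gnaq/Gna11 arrays. The difference was 1.14 ± 0.224, 2.20-fold, with an adjusted p of 0.0148. It passed in 13 of 16 alternative fits (0.99 to 1.33, adjusted p 0.00843 to 0.0644), and not without Gnaq/Gna11 replicate 3 or Gna12/Gna13 replicate 1 or 2. With the leukocyte marker mean as a covariate it was 1.19 ± 0.232. Markers of cell types also differed between these groups. All 14 type II markers were higher in Gnaq/Gna11 arrays, where 56.5% of all genes were, and 7 passed, with means of 11.09 ± 0.051 against 10.47 ± 0.133. Of 9 fibroblast markers 7 were higher and 2 lower, with means of 6.83 ± 0.269 against 5.87 ± 0.546, and 3 passed as higher (Col1a1, Col1a2 and Col3a1). Of 6 epithelial markers 2 were higher and 4 lower, with means of 11.265 ± 0.104 against 11.338 ± 0.181, and Cdh1 and Krt19 passed as lower. The part of these shifts in the Rfc4 difference was not tested. Its second probe set, at 5.63 to 6.10 in Gnaq/Gna11 and 4.78 to 5.44 in Gna11 arrays, also stood apart in the first comparison.

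Arrays did not overlap, with Gnaq/Gna11 higher, for 3 mitotic and 6 replication genes (15.5% of all genes), and in no gene of the 47 with it lower (12.9% of all genes). The replication genes were Mcm2, Rrm1, Rfc4, Prim1, Fen1 and Ccne1, and the mitotic ones Birc5, Bub1 and Ttk. Mcm2 read 8.33, 8.03 and 8.35 in Gnaq/Gna11 and 6.98, 7.45 and 7.55 in Gna12/Gna13 arrays, a difference of 0.91 ± 0.253 (adjusted p 0.0602). Fen1 differed by 0.53 ± 0.146 (adjusted p 0.0585) and Prim1 by 1.08 ± 0.348 (adjusted p 0.0972). The second Fen1 probe set went the other way, with 5.05, 5.12 and 5.10 in Gnaq/Gna11 and 5.03, 5.43 and 5.47 in Gna12/Gna13 arrays. The second probe sets of Mcm2 and Prim1 were higher in Gnaq/Gna11 arrays but overlapped. The medians were 0.16 and 0.17, beside 0.04 over all genes. Between the Gna11 and Gna12 lines the position number of the labels is 2 or 4, its meaning is not stated there, and it cannot be told apart from genotype in this comparison or the one before it.

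Further genes of the same pathways were read from lists of 44 mitotic, 44 replication and 38 cell cycle entry and arrest genes, of which 44, 42 and 37 were measured. In the first comparison 2 of 44 mitotic genes rose and no gene of the other 2 lists passed, where 1.84% of all genes did. At an unadjusted p under 0.05, 9 of the 44 mitotic genes were higher and 3 lower, 7 of 42 replication genes higher and 1 lower, and 3 of 37 entry and arrest genes higher and 3 lower. Cdkn3, a phosphatase that acts on cyclin-dependent kinases, rose by 2.76 ± 0.566 (adjusted p 0.0375) from a group mean of 4.45 to 7.21. Espl1, the separase that cleaves cohesin, rose by 1.27 ± 0.263 (adjusted p 0.0388). The medians were 0.19, 0.17 and -0.03, beside -0.03 over all genes. In the second comparison 0 genes of the 3 lists passed in limma, with 1 of 44 mitotic, 0 of 42 replication and 1 of 37 entry and arrest genes at an unadjusted p under 0.05.

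Between the single knockouts Cdkn1a, which encodes the cyclin-dependent kinase inhibitor p21, rose by 1.16 ± 0.247 in Gna12 arrays (adjusted p 0.0375), and no other gene of these 3 lists passed, where 2.82% of all genes did. Between the double knockouts the phosphatase gene Cdc25b, which activates Cdk1, rose by 1.87 ± 0.264 in Gnaq/Gna11 arrays (adjusted p 0.00328). The condensin gene Ncapd2 rose by 1.32 ± 0.251 (adjusted p 0.0128) and the uracil-DNA glycosylase gene Ung by 1.89 ± 0.375 (adjusted p 0.0154). The cytokinesis kinase gene Cit fell by 0.96 (adjusted p 0.0325), and the DNA damage checkpoint kinase gene Chek2 fell by 0.97 (adjusted p 0.0491). The 5 are 3 of 44 mitotic, 1 of 42 replication and 1 of 37 entry and arrest genes, where 6.1% of all genes passed, so the lists together held no larger share of calls than all genes did.

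**Figure D5:**
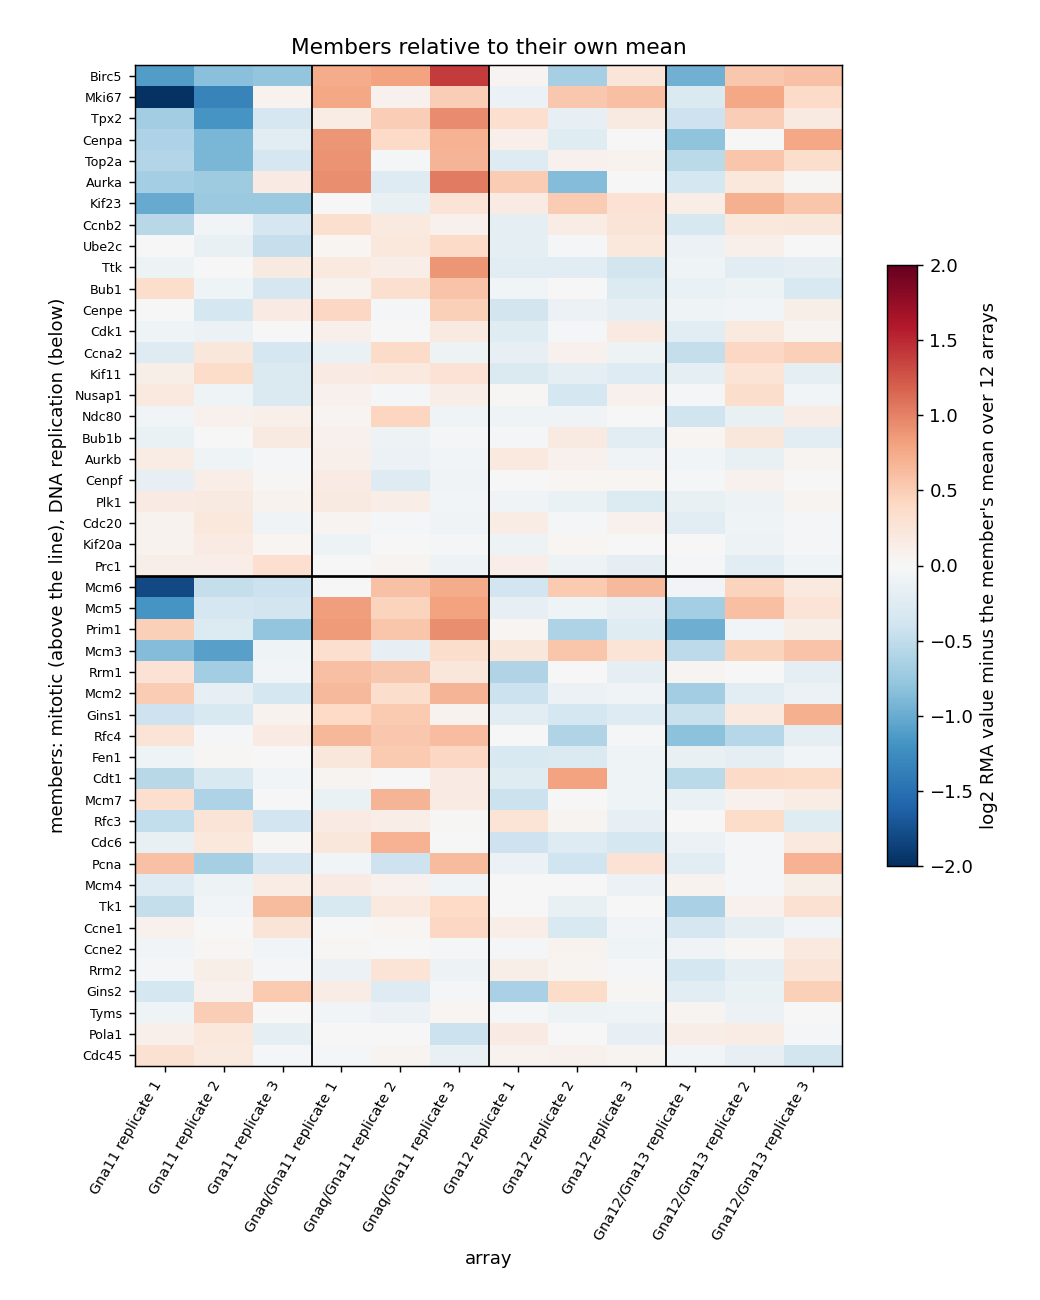
RMA value (log2) of each of the 47 genes in each of the 12 arrays, minus that gene's mean over the arrays, red above and blue below it, mitotic genes above the line and replication genes below. For Birc5, Tpx2, Cenpa and Mcm5 all 3 Gnaq/Gna11 columns are red and all 3 Gna11 columns blue, and the rows of dim genes such as Kif20a and Ccne2 are pale.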

How the data were processed

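RNA of 12 samples, 3 in each of 4 knockout groups named by the titles, was hybridised to 1-colour Affymetrix arrays. The deposited values are log2 expression values, 1 per probe set, computed by the authors with RMA according to the submitters' processing notes. RMA corrects background, normalizes between arrays and summarises probes, and it compresses differences of dim probe sets. No label or header states the base of the logarithm, which was read as 2. Of 45101 probe sets 64 were controls, 34945 named 1 gene, 932 several and 9160 none. Symbols of 34741 were updated through the gene number with RefSeq's GRCm38.p6 table, and 204 kept the platform's symbol.

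For each gene the probe set with the highest mean was used. One mean per group was fitted with limma 3.58.1 in R 4.3.3 (eBayes with trend, 8 residual and 3.19 prior degrees of freedom). Tests were two-sided and adjusted by Benjamini-Hochberg over 18193 genes. The procedure was tested on simulated data. The number of arrays limits the precision. The 48 genes, the further lists and the tests were chosen with earlier results of these data known. Values by array, often only in the groups compared, are given for each gene that passed and for fixed examples of each role. They are also given for the mitotic and the replication genes with the 2 largest differences either way in each comparison, leaving out genes dim in every group. Nusap1 fell under this rule but is not given by array. A few others were added after their values were seen. Alternatives were other summaries of probe sets, filters, weights, covariates, a replicate block and leaving out each array.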

Additional observations from a re-analysis of the deposited data

How the results depend on the processing

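The 3 genes that passed are given with their alternatives above. The counts and medians stayed within 1.5 times or within the spread between replicates in the alternatives run, except as given here, and no called direction reversed. Leaving out genes dim in every group (mean below the median level) gave 3 genes of the 47 for Gnaq/Gna11 minus Gna11 (Kif23 and Tpx2 joined) and 3 for the double knockouts (Mcm2 and Fen1 joined Rfc4, as they did without a trend and with weights). It raised the mitotic medians to 0.70, 0.64 and 0.34 in the first, the difference-of-differences and the single-knockout comparison. The replication median of the difference of the differences rose to 0.33. A gene that passes only through its brighter group must differ, so these medians are no support. Tpx2 and Birc5, with Gna11 means of 4.95 and 5.06, passed this filter only through other groups. Their calls in this fit are therefore no support either. Fitting without an intensity trend gave 2 and 3 genes of the 47 for the same pair of comparisons. The mean of all probe sets gave 0 for Gna12 minus Gna11 and 3 for the double knockouts (Bub1 and Rrm2 joined), where array weights gave 3 as well. In the first comparison array weights gave 174 genes called and 0 of the 47. The leukocyte covariate gave 8 genes, 0 of the 47 and a replication median of 0.0074, the Gapdh covariate 3, 0 and 0.174, and the Eif2s3y covariate 0 of the 47. Fitting only the groups compared gave 139 genes. For the difference of the differences the genes called were 35 with the mean of probe sets, 43 without dim genes, 22 without a trend, 28 with weights, 1 with the leukocyte and 0 with the Gapdh covariate, and the replication median was -0.13 with the leukocyte covariate. For Gna12 minus Gna11 both of these covariates gave 0 genes called and 0 of the 47, with medians of -0.11 and -0.39 with the leukocyte covariate, and the fit of only those groups gave 22 genes and 0 of the 47. The gap between the mitotic and replication means was -0.98, -1.04, -0.97 and -0.98 with the mean of probe sets and -2.26, -1.98, -1.93 and -1.88 without dim genes, in the order Gna11, Gnaq/Gna11, Gna12, Gna12/Gna13.

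Leaving out 1 array gave 102 to 375 genes called in the first comparison (0 to 2 of the 47), 0 to 3 in the second, 0 to 40 for the difference of the differences, 62 to 736 between the single knockouts (0 to 2 of the 47) and 369 to 842 between the double knockouts (0 to 1 of the 47). The replication median ran from 0.0821 to 0.29 for the difference of the differences and from 0.0457 to 0.26 between the double knockouts, lowest in both without Gna12/Gna13 replicate 1. The cause of these shifts was not tested. The labels do not say what same-numbered replicates share. Their deviations correlated from -0.01 to 0.27 and not all above 0.1, though the best-matching array had the same number more often than not. Eif2s3y also followed the number in every group but Gnaq/Gna11. Whether the replicates were paired is thus not settled. With the replicate block 2 genes of the 47 passed in the first comparison and 2 between the single knockouts. Mcm6 joined in both (1.35 ± 0.197, adjusted p 0.0179, and 1.17 ± 0.197, adjusted p 0.0244). With 3 arrays a group, only differences well above the spread could pass, and dim probe sets hide smaller ones.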
